A study of Pleurodeles waltl with 10 samples.

Results

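The spectrins and ankyrins of the membrane skeleton were examined as 6 genes in the transcript catalogue of a newt brain study: the spectrins SPTAN1, SPTBN1 and SPTBN4 and the ankyrins ANK1, ANK2 and ANK3. The genes were found by name in the table that pairs transcripts with genes, with upper and lower case treated alike. All 6 were listed, among 16771 gene names. The set was chosen with the transcript numbers of this catalogue already known, so those numbers are given below as a description and no test was made on them. The study sequenced single forebrain cells of the Iberian ribbed newt (Pleurodeles waltl), a salamander, from larvae that had reached stage 55, after injection of PHP-GFP, a virus carrying a fluorescent marker, at stage 37, 41 or 51. Its 10 libraries were 5 of gene expression and 5 of multiplexing oligos, with 2 of each kind for injection at stage 37, 1 of each kind at stage 41 and 2 of each kind at stage 51. Every library was from injected animals, and the cells were pooled with 4 oligos per stage. Expression per library was not analysed here, so nothing below compares injection stages.

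Spectrins are long rod-shaped proteins built of repeated helical bundles. Alpha and beta chains pair side by side and then end to end, and the resulting tetramers cross-link short actin filaments into a lattice under the plasma membrane. Ankyrins are adaptors that bind beta spectrin on one side and membrane proteins such as ion channels, pumps and cell adhesion molecules on the other. In mammalian neurons this lattice lines the axon, and ankyrin-G and beta-IV spectrin hold sodium channels at the axon initial segment, where action potentials start. Ankyrin genes are known in mammals for very long alternative exons that give giant neuronal proteins.

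The catalogue assigns transcripts to genes, so that reads can be summed per gene. It holds no read counts and no transcript lengths. A number of listed transcripts is therefore neither an expression level nor a number of proven splice forms, and it cannot be set per length. Its 194406 rows hold 194333 distinct transcript names, with a median of 6 distinct transcripts per gene name and an interquartile range of 2 to 14 among the 16765 other names. All but a few transcript names came in 2 forms, those starting with pt_ and those starting with TRINITY_, the prefix of an assembler of short reads. TRINITY names end in an isoform number, and transcripts that share the rest of the name form a cluster.

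Together the 6 genes held 726 distinct transcripts, 702 with pt_ names and 24 with TRINITY names. The median was 123 per gene, and the mean was 121 ± 80.9 (SD across 6 genes). Genes are not replicates, so this SD describes how far the genes lay apart. The lowest and the highest gene differed 24.2-fold. The 3 spectrins held 470 transcripts and the 3 ankyrins 256.

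SPTAN1 encodes the alpha spectrin of tissues other than red blood cells, the chain that each beta spectrin of the brain pairs with. It had 158 transcripts, 153 with pt_ names and 5 with TRINITY names. It ranked 26 among all names, tied with 1 other, and 99.9% of the other names had fewer. Its 5 TRINITY transcripts lay in 5 clusters, the most clusters of the 6 genes.

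SPTBN1 encodes beta-II spectrin, the widely expressed beta chain of the axonal lattice in mammals. It was the highest of the 6, with 242 transcripts, 239 under pt_ names and 3 under TRINITY names in 3 clusters. This put it in the fifth place of the whole catalogue. Its number was 1.53 times that of its partner SPTAN1. SPTBN4 encodes beta-IV spectrin, the beta chain of the axon initial segment and nodes of Ranvier. It had 70 transcripts, of which 69 had pt_ names and 1 a TRINITY name. SPTBN4 was the lowest spectrin of the 3, 3.46-fold below SPTBN1, yet 98.6% of the other gene names had fewer transcripts.

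ANK2 encodes ankyrin-B, known for the distal axon in neurons and for the heart. It led the ankyrins with 153 transcripts, 146 under pt_ names and 7 under TRINITY names. The number was close to that of SPTAN1, at 158. ANK3 encodes ankyrin-G, the organiser of the axon initial segment. It had 93 transcripts, 87 with pt_ names and 6 with TRINITY names, and 99.3% of the other gene names had fewer.

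ANK1 encodes ankyrin-R, known first from red blood cells and found in some neurons. It stood apart from the other 5 genes with 10 transcripts, 8 with pt_ names and 2 with TRINITY names. ANK2 had 15.3 times and ANK3 9.3 times as many. The number for ANK1 was 1.67 times the median of the other gene names, and 64.9% of those names had fewer transcripts, so it lay within the body of the distribution. The other 5 genes had 70 or more.

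**Figure D1:**
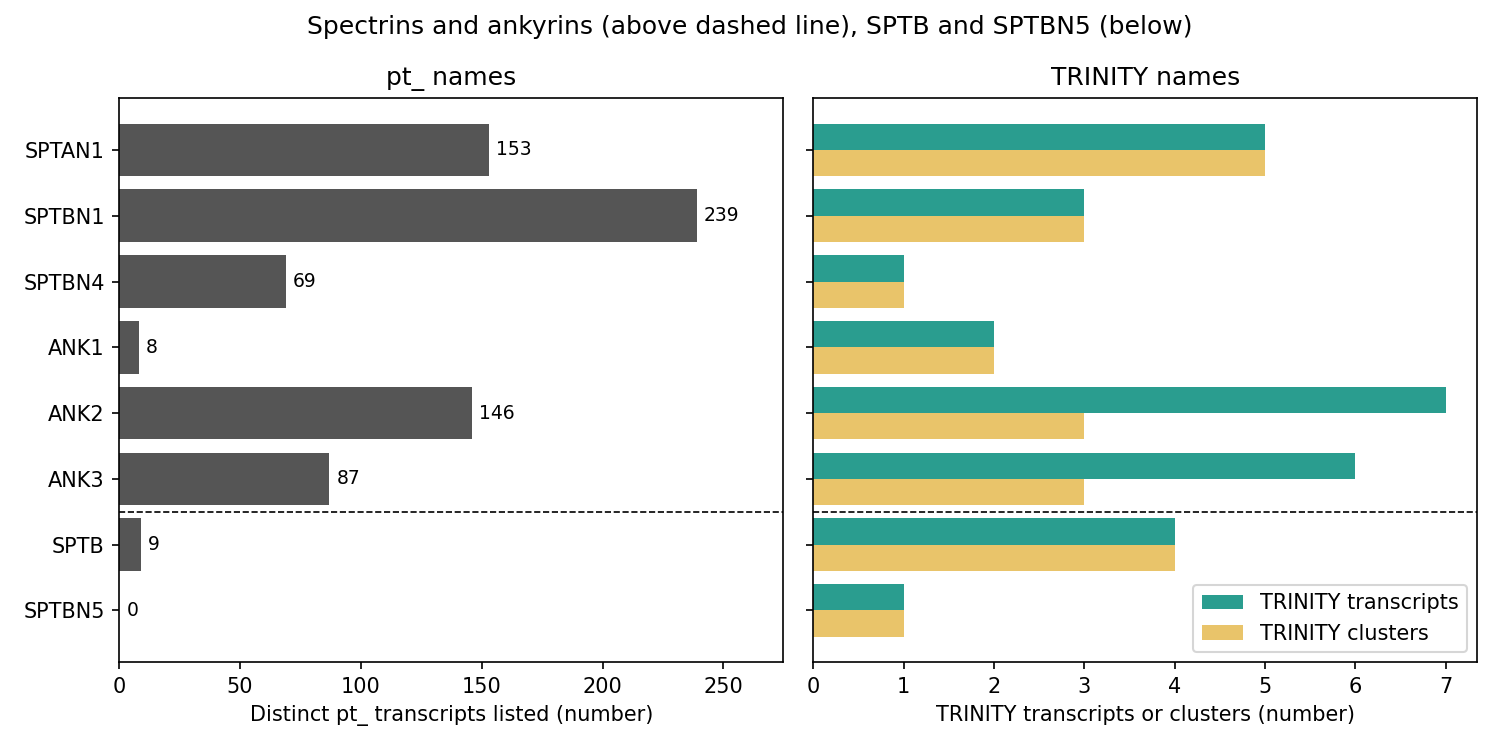
Transcripts listed for the 6 genes (above the dashed line) and for SPTB and SPTBN5 (below it). Bars on the left give distinct pt_ transcripts, among the 6 genes from 8 for ANK1 to 239 for SPTBN1, and bars on the right give TRINITY transcripts and TRINITY clusters, of which no gene shown has more than 7.

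Of the 6 genes, 3 had at least 100 distinct transcripts (SPTAN1, SPTBN1 and ANK2), where 0.584% of all gene names did. Both transcript sources were present for 6 of 6, where 70.7% of all names had both. Not every name matches a newt gene symbol in RefSeq, the annotation used below. Of the 12442 other names that do, 10099 had both sources. TRINITY transcripts in at least 2 clusters were present for 5 of 6, the exception being SPTBN4, where 38.6% of all names had that many. The genes were chosen by these same numbers, and nothing further is read from the counts.

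**Figure D2:**
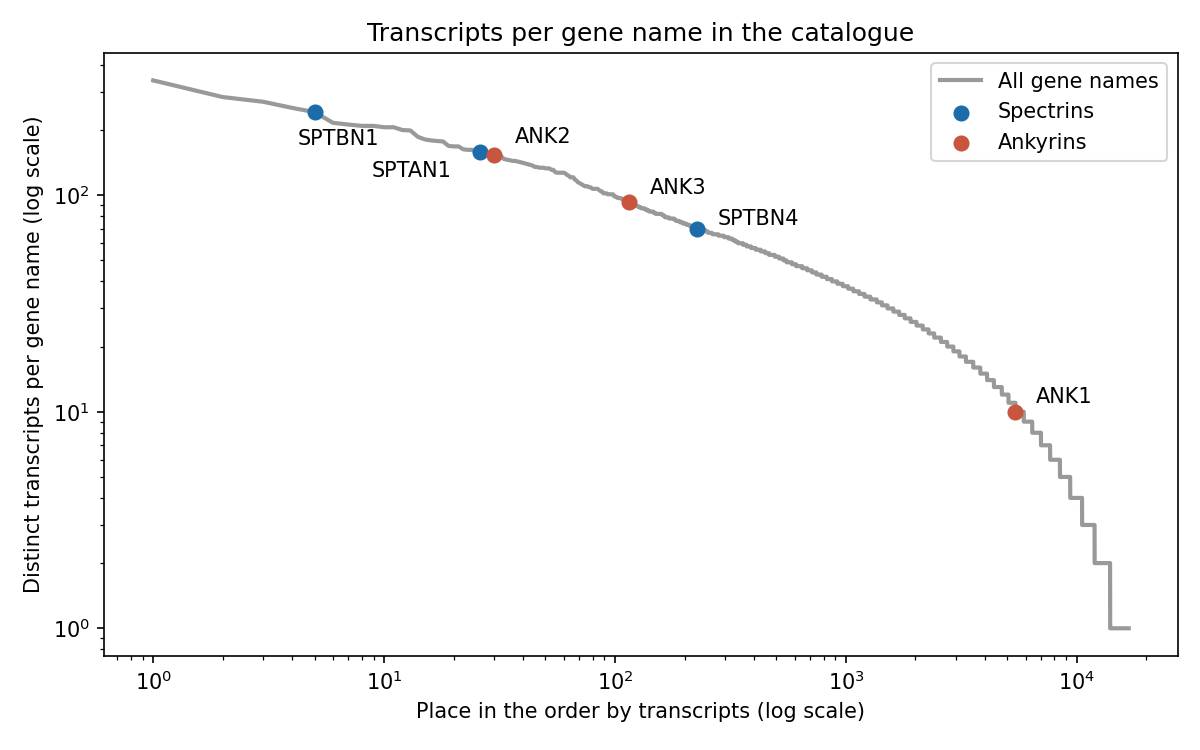
Distinct transcripts per gene name (vertical axis, log scale) against place in the order from most to fewest (horizontal axis, log scale) for the 16771 names. The spectrins SPTBN1, SPTAN1 and SPTBN4 and the ankyrins ANK2 and ANK3 lie on the upper part of the curve, and ANK1 lies near its steep lower part with 10 transcripts.

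The gene names nearest to the 3 highest members in number of transcripts were found from the order over the whole catalogue, with ties in alphabetical order. SPTBN1 stood between CELF2, an RNA-binding splicing regulator, with 253 transcripts, and EPB41L3 with 216. EPB41L3 encodes a protein that links membrane proteins to spectrin and actin, and it was one of the related genes listed below. SPTAN1 stood between CADPS, a regulator of dense-core vesicle release with the same number of 158, and MACF1, a giant spectrin-repeat protein that links actin to microtubules, with 157. ANK2 stood between PTPRK, a receptor tyrosine phosphatase, with 155, and ZEB2, a transcription factor, with the same number of 153. The 6 neighbours were chosen for their number of transcripts alone.

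No transcript of the 6 genes was also listed under another gene name, and each gene had a single spelling. None of their rows was repeated either, so the numbers were the same whether rows or distinct names were counted. These traits are common in the catalogue and do not set these genes apart. Its 194406 rows held 194333 distinct transcript names, and its 17112 spellings of gene names came to 16771 names with case ignored. The 24 TRINITY transcripts of the 6 genes lay in 17 clusters, and 13 of these clusters (76.5%) held a single listed transcript, where 85.5% of the 28058 clusters in the catalogue did. No cluster of the 6 genes carried a second gene name. The share of clusters with several gene names over the whole catalogue was not counted, so nothing is read from this.

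Each of the 9 spectrin transcripts was alone in its cluster. ANK2 and ANK3 had clusters with several transcripts, beside 1 cluster each with a single one. The cluster of ANK2 with the most held 4, with the isoform numbers 1, 24, 26 and 27. ANK3 had a cluster of 3 transcripts, numbered 3, 8 and 10, and another of 2. The 2 transcripts of ANK1 lay in separate clusters and carried the isoform numbers 8 and 17. An isoform number of 17 on the only listed transcript of a cluster means that lower numbers of that cluster are not listed under this or any other gene name. The step that decided which isoforms were listed is not stated in the sources used here.

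TRINITY names also carry a broader number, after the letters DN, that groups clusters of related reads. The 6 genes used 15 such groups, of which 3 also held clusters of another gene name, where 13.5% of the 22981 groups in the catalogue held more than 1 name. The group of the single SPTBN4 transcript also held SPTB, the beta spectrin of red blood cells. Both are beta spectrins, and whether reads were split between these names was not tested. The groups of SPTAN1 held RAD52, a DNA repair gene, in 1 case and GPR182, a receptor gene, in another. No sequence was examined.

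TRINITY names made up 3.31% of the transcripts of the 6 genes (95% Wilson interval 2.23% to 4.87%), against 17.4% for all other gene names. Among the 548 other names with at least 50 transcripts, TRINITY names made up 5.58%, and the median per name was 3.57%. Among the 95 other names with at least 100 transcripts, TRINITY names made up 5.86%, and the median per name was 2.63%. Of the 6 genes, 5 had at least 50 transcripts and 3 at least 100, so neither set is a like comparison for all 6. In the spectrins 9 of 470 transcripts (1.91%, 1.01% to 3.60%) had TRINITY names, and in the ankyrins 15 of 256 (5.86%, 3.58% to 9.44%). For single genes the share was 1.24% in SPTBN1, 1.43% in SPTBN4, 3.16% in SPTAN1, 4.58% in ANK2 and 6.45% in ANK3. It was highest in ANK1, at 20% of its 10 transcripts. The single genes thus lay on both sides of the medians per name of 3.57% and 2.63%. Transcripts of 1 gene are not independent, so these intervals give a scale only.

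RefSeq's gene models for this species (assembly aPleWal1.hap1) list transcripts per gene as well, and were set beside the catalogue. All 6 genes were found there by symbol, among 12448 symbols shared with the catalogue. RefSeq had 36 transcript accessions for ANK3 and 33 for ANK2, which ranked 7 for ANK3 and 10 for ANK2 by that number. It had 6 for ANK1 and 6 for SPTAN1, 4 for SPTBN1 and 3 for SPTBN4. The median of the 12442 other symbols was 2.

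The order of the genes thus differed between the catalogue and RefSeq. SPTBN1 was highest in the catalogue, with 242 transcripts, and next to lowest of the 6 in RefSeq. ANK3 was highest in RefSeq, and in the catalogue it stood behind SPTBN1, SPTAN1 and ANK2. Per RefSeq accession, the catalogue listed 60.5 transcripts for SPTBN1, 26.3 for SPTAN1 and 23.3 for SPTBN4. The ankyrins had 4.64 for ANK2, 2.58 for ANK3 and 1.67 for ANK1. ANK1 had 10 transcripts over 6 accessions, and ANK2 and ANK3 had 33 and 36 accessions. With 3 chosen genes of each kind, nothing is read from these ratios about the 2 families. The median ratio was 4 over all other symbols. Because the genes were chosen for their transcript numbers, which enter this ratio, other names with many transcripts are the closer comparison. Among other names with at least 50 transcripts that RefSeq also lists, 490 in all, the median was 18.6. Among the 79 such names with at least 100 transcripts it was 20.4, and 14 of them had a ratio at least as high as SPTBN1. SPTAN1, at 26.3, and SPTBN4, at 23.3, lay above these medians, and ANK2 and ANK3 lay well below them. SPTBN4 and ANK3 had fewer than 100 transcripts, so for them only the median of 18.6 is a like comparison. Across the 12448 symbols the catalogue's number and RefSeq's number had a Spearman rho of 0.27, a weak relation given here as a description. Genes are not independent, and RefSeq numbers depend on the evidence available to that pipeline.

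**Figure D3:**
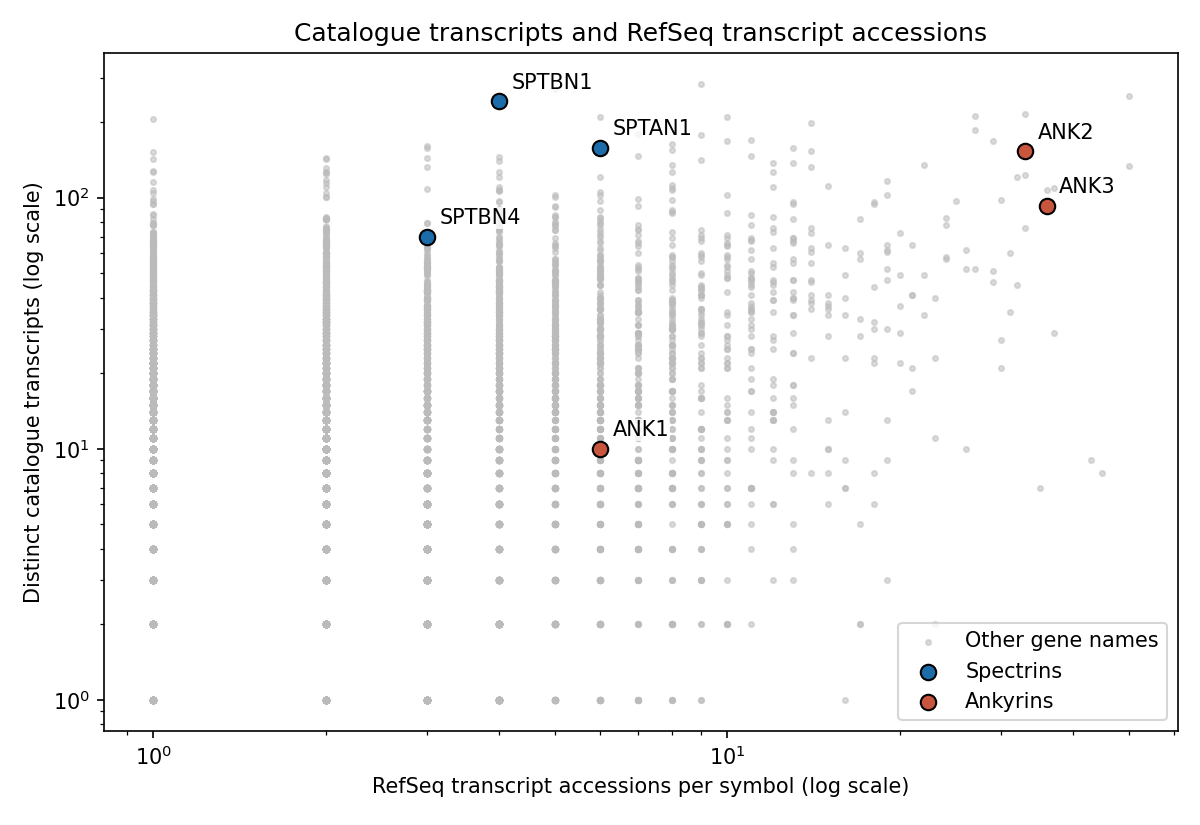
Distinct catalogue transcripts (vertical axis, log scale) against RefSeq transcript accessions (horizontal axis, log scale) for 12448 symbols found in both. The 3 spectrins, with 3 to 6 accessions, lie left of ANK2 and ANK3 but above the median of 2 of the other symbols. ANK2 and ANK3 lie far to the right with 33 and 36, and ANK1 lies below SPTAN1 at the same 6 accessions.

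Other spectrin genes were listed at lower numbers than the 3 spectrins above. SPTB had 13 transcripts, with 9 pt_ and 4 TRINITY names in 4 clusters. SPTBN5, a giant beta spectrin, had 1 TRINITY transcript and no pt_ transcript.

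A wider set of 68 genes of the membrane skeleton was set beside the 6 genes. All 68 were listed, with a median of 22.5 transcripts and a range from 1 to 216, and 54 of them lay above the median of 6 of the other gene names. At least 100 transcripts were listed for 5 of the 68, where 0.584% of all gene names had that many. These lists were written from general knowledge, with earlier results of this catalogue known, and no test was made on them.

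The spectrin-actin junction is where spectrin tails meet short actin filaments. Its 17 genes had a median of 30, from 2 for TMOD1, which caps the slow-growing ends of actin filaments, to 216 for EPB41L3. ADD1, an adducin that caps the fast-growing ends and recruits spectrin, had 94. Another list held 6 ankyrin-repeat proteins, KANK1 to KANK4, ANKS1A and ANKS1B, and had a median of 25, with 39 each for KANK1 and KANK2 and 6 for KANK4.

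Ankyrin-bound membrane proteins comprised 20 genes with a median of 24. SCN2A, a voltage-gated sodium channel, was highest with 206 and NRCAM, a cell adhesion molecule of the L1 family, had 162. Channels known to be held by ankyrin-G varied widely within this list. SCN8A had 29 transcripts and KCNQ3 had 10. SLC4A3, an anion exchanger, had the fewest with 1.

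The 15 partners of the axon initial segment and paranode had a median of 16. MAP1B, a microtubule-associated protein of growing axons, was highest with 142, and GLDN, a ligand that gathers channels at nodes of peripheral nerves, was lowest with 2. The initial-segment microtubule protein TRIM46 had 3. The list of proteases that cleave spectrin and their regulators had 6 genes and a median of 19, with the most, 47, for CAST, the inhibitor of calpains.

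**Figure D4:**
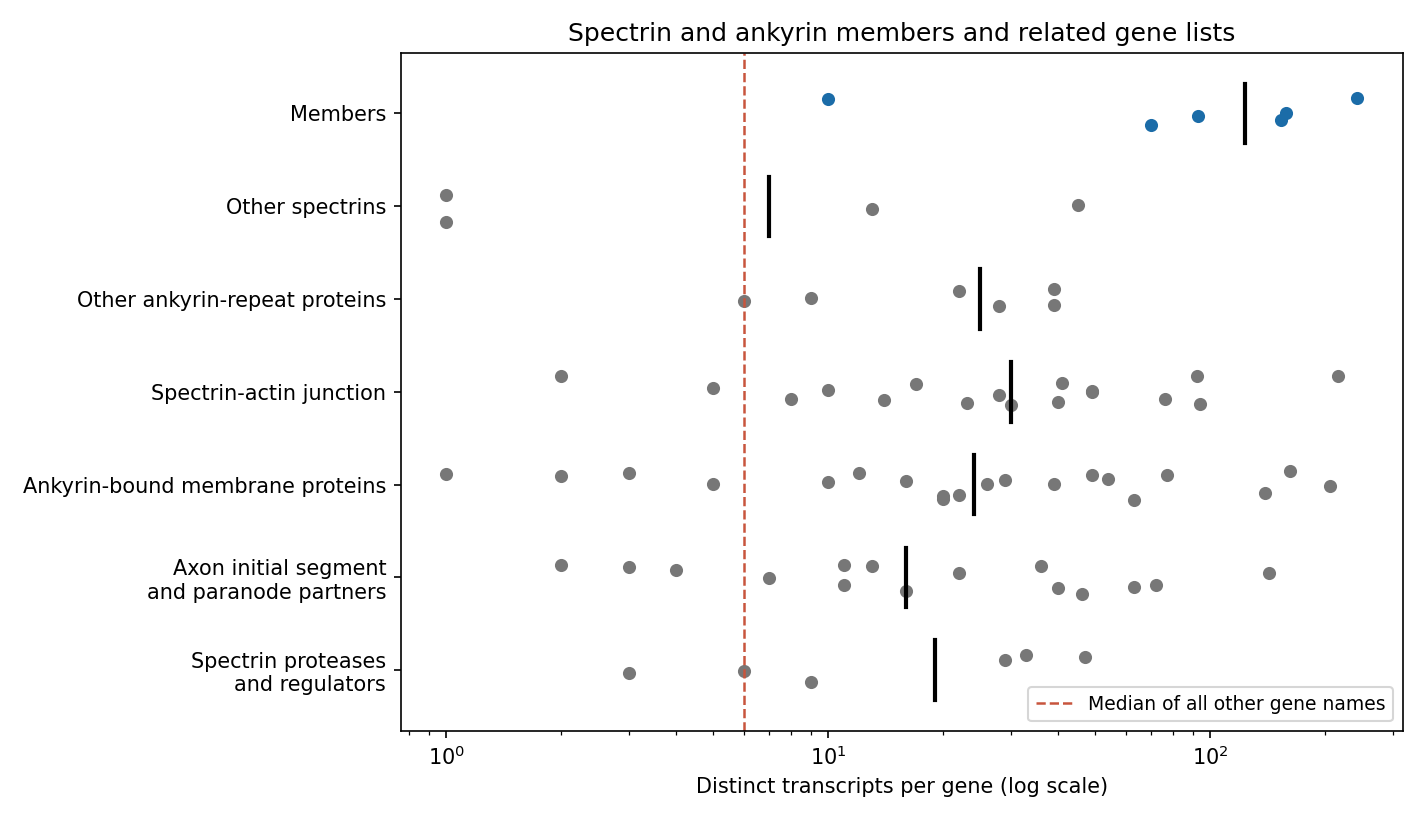
Distinct transcripts per gene (log scale) for the 6 members and for the related lists, with 1 point per gene, a black bar at each median and a dashed line at the median of 6 of all other gene names. Members have a median of 123 and the lists have medians from 7 to 30, with wide overlap between single genes.

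Names of the pt_ form end in a serial number. The 160687 listed numbers lay between 0 and 289998, and 55.4% of the numbers in this range were listed. What set the order is not stated in the sources used here and was not tested. For scale, 62.8% of the 78 transcripts named for ribosomal proteins, a class chosen after its values were seen, fell in the highest 25% of the range, against 23.7% of the 159985 pt_ transcripts outside the 6 genes, ribosomal ones included (called all other pt_ transcripts below).

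The lowest 25% of the range held 62.3% of the 146 pt_ transcripts of ANK2, 58.2% of those of SPTAN1, 45.2% of those of SPTBN1 and 37.7% of those of SPTBN4, against 27.0% of all other pt_ transcripts. ANK2 had 3 of its 146 in the highest 25%. The 8 of ANK1 lay between 3020 and 130897, with 5 of them in the lowest 25%. ANK3 differed from ANK2, with 27.6% in the lowest and 19.5% in the highest 25%, close to the shares over all other pt_ transcripts. The median serial number was 135974 for ANK3 and 45081 for ANK2. Neighbouring numbers rarely belonged to the same gene. SPTAN1 had 1 pair of consecutive numbers and the other 5 genes had 0, and in the whole catalogue 53 of 89439 consecutive pairs shared a name.

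**Figure D5:**
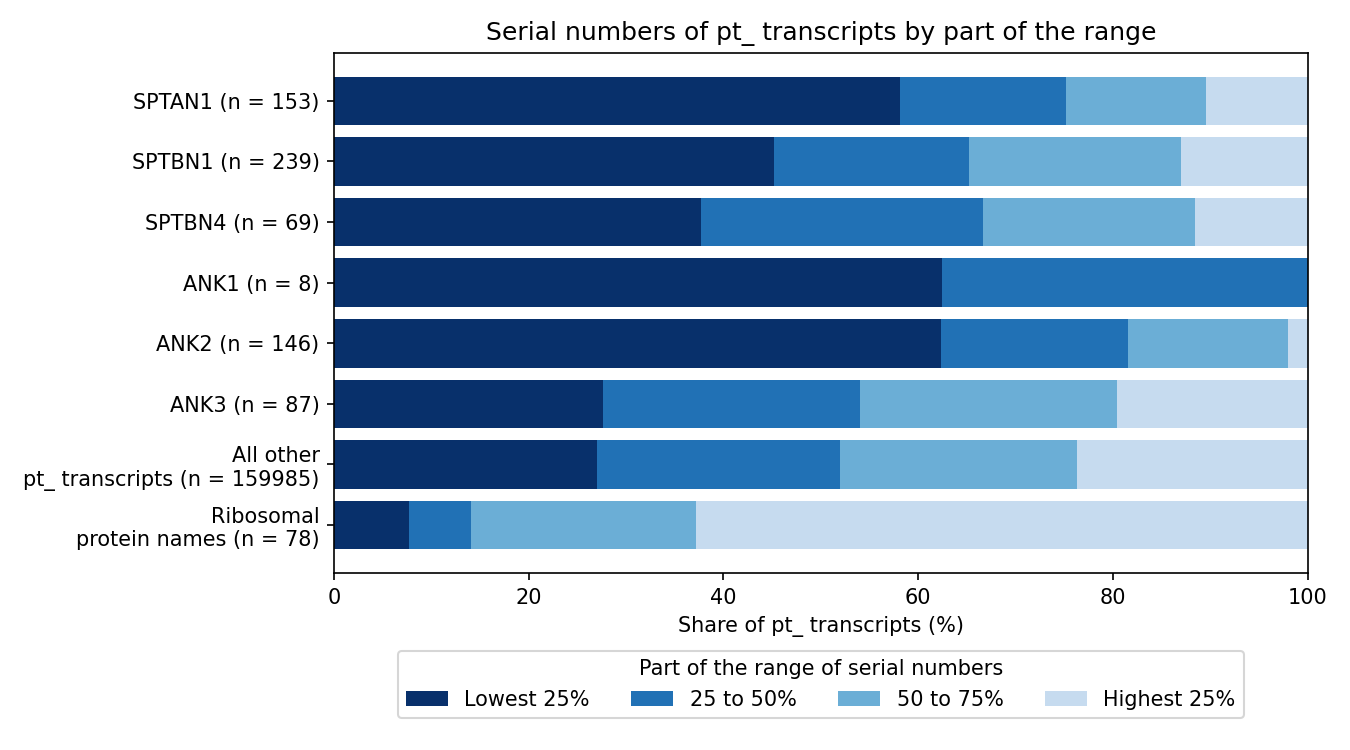
Share of pt_ transcripts (horizontal axis, %) whose serial number falls in each successive 25% of the range from 0 to 289998, for the 6 genes, all other pt_ transcripts and ribosomal protein names. The lowest 25% holds most transcripts of SPTAN1, ANK1 and ANK2, ANK3 has shares close to those of all other pt_ transcripts, and ribosomal protein names fall mostly in the highest 25%.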

How the data were processed

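The deposited table pairs transcript names with gene names. It holds names and no other kind of value, and how the authors assembled, filtered and named the transcripts is not given in the sources used here. The submitters' processing notes name Salmon 1.6.0 and alevin, without a role. Tissue was dissociated for 30 min, per the labels' protocols. Fields were read as separated by white space, gene names were folded to upper case, and distinct transcript names were counted per gene name. No column gives a measurement per sample, so depth is unknown and no test between samples was possible. The table of multiplexing oligos was not used.

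Gene names were matched, ignoring case, to RefSeq symbols (assembly aPleWal1.hap1), without symbols made of LOC and a number, and transcript accessions per symbol were counted. The genes, lists and alternatives were chosen with earlier results of these data known. All 6 genes were named. For each list, the genes with the most and the fewest transcripts and those with at least 100 were named, except some that are not reported here. Other genes (ADD1, KANK2, SCN8A, KCNQ3, TRIM46 and SPTB among them) and the analyses of RefSeq numbers, serial numbers and DN groups were added after their values were seen. Counting was tested on a simulated catalogue of 200 gene names, of which 200 were recovered. Counts were made in Python 3.11.15 with numpy 2.4.6, intervals and rank correlations with scipy 1.17.1, and figures with matplotlib 3.10.9.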

Additional observations from a re-analysis of the deposited data

How the results depend on the processing

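For 11 results, 65 values were computed under 18 alternative settings, each applied to some of the results, and 12 values moved. Counts, medians and the rank correlation were called moved when they changed by more than 1.5 times, and shares when they left their 95% Wilson interval. That interval narrows as transcripts increase, so for shares the label also depends on how many transcripts were counted. Counting every row, taking names exactly as upper-case symbols, and leaving out transcripts with several gene names moved none of the 8 results on the 6 genes and the related lists. For the 6 genes this outcome was fixed in advance. They had no repeated rows, a single spelling each and no transcript under another gene name. Leaving out each of the 6 genes in turn was run for the median number of transcripts, the TRINITY share and the median number of clusters. It moved none of these 3 by the rule above. The median of 123 transcripts still became 93 or 153, and the share ran from 2.84% without ANK3 to 4.34% without SPTBN1. TRINITY transcripts alone gave 24 transcripts for the 6 genes with a median of 4, a median of 2 for the related genes, and 0 genes with at least 100 transcripts in either set, which follows from dropping the pt_ names. In place of 3 of the 6 genes and 5 of the related genes at 100 transcripts, a threshold of 50 gave 5 and 13. A threshold of 200 gave 1 and 2. Of the 16765 other gene names, 548 had at least 50 transcripts and 95 had at least 100. Over all gene names, 0.584% had at least 100. The number of other names with at least 200 was not counted, so nothing is read from the counts at 200. SPTBN1, with 242, ranked 5 among all names. The TRINITY share of other gene names, 17.4%, was 13.7% among names with both sources, 5.58% among names with at least 50 transcripts and 5.86% among names with at least 100. With transcripts pooled, the share in the 6 genes, 3.31%, was thus nearer to that of names with many transcripts. Shares of single genes ran from 1.24% in SPTBN1 to 20% in ANK1, so this holds for the pooled share alone. The comparisons with names in both sources and with names of many transcripts were chosen after seeing the data. No paired analysis was possible because the table holds no values per library. No library could be left out either.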
